A study of Rattus norvegicus with 9 samples.

Results

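The myelin galactolipid and sphingolipid synthesis set was given as 9 gene symbols that cover the route from serine to the glycolipids of the myelin sheath, Sptlc2, Cers2, Elovl1, Elovl7, Fa2h, Ugt8, Gal3st1, Sgms1 and Aspa. They were read from a table of 32623 rat genes, where each symbol had 1 row, and all 9 passed the filter on low counts that left 15321 genes to test. RNA came from wild-type rat oligodendrocyte precursor cells (OPCs) purified from brain and kept for 5 days in a differentiation medium. There were 3 basal libraries without drug, 3 with 1 µM bavisant and 3 with 10 µM bavisant, a histamine H3 receptor antagonist. For the lower dose 1 µM is printed in the sample labels and the series design, and 1 mM in the protocols. Each group holds 1 library of each of the numbers P11, P13 and P14. What P marks is not given in the labels, so p-values measure the spread between these libraries, which may be technical.

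Myelin is built largely of lipid, and galactosylceramide and its sulfated form, sulfatide, are its typical glycolipids. Serine palmitoyltransferase joins serine and palmitoyl-CoA to begin a sphingoid base, and ceramide synthases attach a fatty acid to it, in myelin often a very long one that elongases have extended and Fa2h may have hydroxylated. Ceramide then receives galactose to become a cerebroside or phosphocholine to become sphingomyelin. Aspa splits N-acetylaspartate, which neurons make, and the acetate it frees can enter lipid synthesis in oligodendrocytes.

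At 10 µM bavisant, 4 of the 9 genes rose against basal once the P number was a term in the fit: Elovl1, Aspa, Gal3st1 and Cers2, by 1.22-fold to 1.32-fold, where 1.32% of all 15321 genes were called higher. Leaving out the basal P11 or P13 library took this count from 4 to 0, and leaving out basal P14 took it to 1. Over all genes tested, calls in either direction went from 607 to 0, 1 and 57 without basal P11, P13 and P14. Ugt8, the enzyme that makes galactosylceramide, kept nearly equal levels in basal and 10 µM libraries, at 1800 ± 173 and 1814 ± 134 CPM (gene counts scaled to a common library size; SD, n = 3). At 1 µM none of the 9 passed the test. Without the P number as a term, edgeR's quasi-likelihood test called none of the 9 genes in any comparison.

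The libraries held 23.9 M to 43.1 M reads, and the P11 libraries stood apart from the others in every group. The precursor marker Pdgfra, 1 of 7 in its list, measured 361 to 378 CPM in the 3 P11 libraries and 798 to 1039 CPM in the other 6. The sum of the 7 precursor markers, Pdgfra included, overlapped, at 2729 to 3057 CPM in P11 and 3020 to 3544 CPM in the other 6. Pdgfra did not stand for its list. In basal, P11 differed from P13 and P14 by more in Pdgfra than in the sum (3057, 3383 and 3455 CPM). The rest of the list together was thus not lower in P11 there. At 10 µM (sums 2891, 3020 and 3487 CPM) the rest was not lower in P11 than in P13. At 1 µM (sums 2729, 3489 and 3544 CPM) it was lower in P11. Libraries with the same P number deviated from their group means together in all 9 pairs (correlation across genes 0.319 to 0.772). The 18 pairs of unlike number from different groups were at -0.708 to 0.193. Deviations from a group mean cancel within the group, so low values in the unlike pairs follow from positive same-number pairs. They are no separate reference. Precursor markers summed to 2729 to 3544 CPM over the 9 libraries, and 10 markers of myelinating oligodendrocytes to 42908 to 71128 CPM. RNA of both marker lists was thus present, and which cells it came from was not tested. In such bulk RNA, fewer cells of a type and less RNA per cell cannot be told apart.

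The 250 bases before the annotated start of 5 of the genes are printed here from the RefSeq table of build GRCr8, the 4 that rose at 10 µM and Ugt8, which did not, to set the called genes beside the most abundant of the 9. Entries were found for all 9 genes, and the first was taken where a gene had several. Which start is used in these cells was not tested. Each sequence is read 5′ to 3′ in the direction of the gene and ends just before its start. Capitals mark matches, on either strand, to the motifs that were searched. The motif of the Sp1 type was spelled GGGCGG, and the one of the core promoter was the TATA box, spelled TATAAA. Sox-type motifs were searched with the spelling ACAATG and with a second spelling that differs in one letter and reads ACAAAG. Myrf-type motifs were likewise searched under both of their spellings, of which the first reads CTGGCAC and the other one reads CTGGTAC. The SREBP-type motif was searched with an open middle position and was spelled TCACNCCAC.
Ugt8 (chr2:217007168-217007417, minus strand): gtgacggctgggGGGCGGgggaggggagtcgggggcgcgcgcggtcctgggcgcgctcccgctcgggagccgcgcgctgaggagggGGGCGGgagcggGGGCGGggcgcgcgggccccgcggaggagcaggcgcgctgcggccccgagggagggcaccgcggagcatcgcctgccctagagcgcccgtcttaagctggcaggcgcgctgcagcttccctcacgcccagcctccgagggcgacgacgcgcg
Gal3st1 (chr14:83094135-83094384, plus strand): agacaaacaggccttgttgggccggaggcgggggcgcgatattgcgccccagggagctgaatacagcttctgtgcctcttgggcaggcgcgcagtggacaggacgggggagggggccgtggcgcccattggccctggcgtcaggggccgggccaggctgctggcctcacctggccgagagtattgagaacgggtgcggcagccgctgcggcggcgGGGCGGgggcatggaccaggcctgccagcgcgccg
Cers2 (chr2:185579261-185579510, plus strand): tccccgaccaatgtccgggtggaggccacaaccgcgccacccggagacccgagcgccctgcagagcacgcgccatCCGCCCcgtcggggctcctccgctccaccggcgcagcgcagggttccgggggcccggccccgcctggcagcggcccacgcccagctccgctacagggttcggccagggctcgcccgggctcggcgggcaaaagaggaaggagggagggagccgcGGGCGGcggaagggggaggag
Elovl1 (chr5:137247905-137248154, plus strand): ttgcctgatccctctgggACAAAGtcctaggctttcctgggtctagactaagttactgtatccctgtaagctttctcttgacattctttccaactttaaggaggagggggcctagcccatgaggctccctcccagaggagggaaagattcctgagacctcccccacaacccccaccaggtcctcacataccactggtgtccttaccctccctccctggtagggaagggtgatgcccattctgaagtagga
Aspa (chr10:58439038-58439287, minus strand): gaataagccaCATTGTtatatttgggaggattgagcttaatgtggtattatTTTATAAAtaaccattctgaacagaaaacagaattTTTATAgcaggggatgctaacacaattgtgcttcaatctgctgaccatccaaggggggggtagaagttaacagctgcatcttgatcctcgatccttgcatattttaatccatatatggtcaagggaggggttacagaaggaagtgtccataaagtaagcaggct

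The promoters of the 4 genes that rose were not alike in composition. Cers2 and Gal3st1 lay in GC-rich sequence, 77.2% and 72.4% G or C with 31 and 23 CpG pairs, as did Ugt8 at 81.2% with 40. Elovl1 was 54.0% GC with 0 CpG pairs in this window, and Aspa 39.2% with 1. The median of 33465 rat promoters was 51.2% and 5 CpG pairs. Of the 4 others, which are not printed, Fa2h was at 74.4%, Sptlc2 at 60.8%, Sgms1 at 50.4% and Elovl7 at 33.6% GC.

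GGGCGG or its reverse complement was present in 4 of the 9 windows, 3 times in Ugt8, 2 times each in Cers2 and Sptlc2 and 1 time in Gal3st1, and 30.5% of all promoters held it. TATAAA was found in Aspa and Elovl7 and in 12.9% of all promoters. Aspa had 3 matches to it, of which 2 overlap, on opposite strands, in the stretch of 8 capitals. Aspa also held 1 match to the first Sox-type spelling (11.1% of all promoters) and Elovl1 1 match to the second (16.3%). None of the 9 windows held either Myrf-type spelling or the SREBP-type motif, which were in 3.78%, 1.78% and 0.974% of all promoters, and this says only that these letters are not in these bases.

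Ordered by level per length (TPM, which divides by transcript length, mean over 9 libraries), Ugt8 was first at 938 TPM and ranked 112 among all genes. Elovl1 followed at 395 TPM, Cers2 at 277 TPM, Aspa at 144 TPM and Gal3st1 at 115 TPM. Fa2h measured 79.7 TPM, Sptlc2 49.9 TPM, Elovl7 39.7 TPM and Sgms1 32.7 TPM, the lowest of the 9 and ranked 5309. The ranges over libraries did not overlap between Ugt8 (848 to 1048 TPM) and Elovl1 (331 to 541 TPM), between Cers2 (216 to 388 TPM) and Aspa (109 to 179 TPM), or between Fa2h (58.7 to 120 TPM) and Sptlc2 (43.5 to 55.6 TPM). The other neighbours in this order overlapped.

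**Figure D1:**
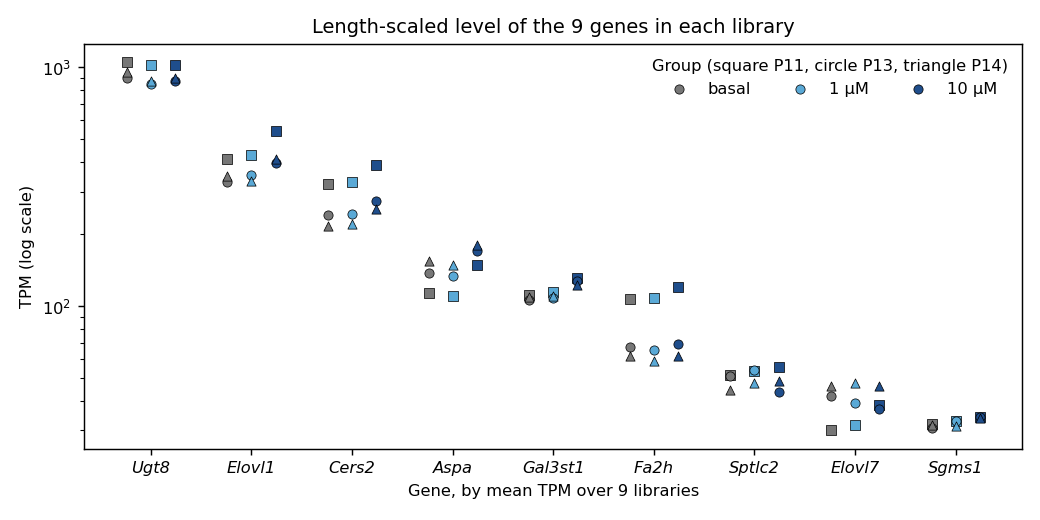
Level of the 9 genes in TPM (log scale) in each of the 9 libraries, with groups by colour and P numbers by symbol. Ugt8 lies above all others, between 848 and 1048 TPM, and Fa2h is highest in the P11 library of each group.

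Ugt8 alone held 47.1%, 47.3% and 48.4% of the summed TPM of the 9 genes in the basal P11, P13 and P14 libraries. Its share was 45.8%, 45.2% and 46.7% at 1 µM and 41.3%, 43.1% and 43.8% at 10 µM. The 3 groups did not overlap in this share, and it was lowest at 10 µM in each P number. The share depends on the other genes of the 9 too, so it restates their values and is no separate support. The sum itself did overlap between groups, at 1909 to 2226 TPM in basal, 1870 to 2226 TPM at 1 µM and 2023 to 2480 TPM at 10 µM libraries.

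The first step of the route showed no called difference. Sptlc2 (ENSRNOG00000012210), a catalytic subunit of serine palmitoyltransferase, measured 50.5, 48.3 and 41.3 CPM in the basal P11, P13 and P14 libraries. It measured 52.6, 51.0 and 43.3 CPM at 1 µM and 56.3, 44.4 and 46.0 CPM at 10 µM. The 3 groups overlapped, and the 10 µM library was above its basal partner in P11 and P14 but below it in P13. The blocked log2 fold change at 10 µM against basal was 0.06 ± 0.07 (SE, edgeR adjusted p = 0.609).

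Among the genes of ceramide and its acyl chain, Cers2 and Elovl1 rose at 10 µM and Elovl7 did not pass the test. Cers2 (ENSRNOG00000021138), the ceramide synthase that prefers very long acyl chains, measured 382, 274 and 241 CPM in the basal P11, P13 and P14 libraries. Its 1 µM libraries were at 393, 275 and 242 CPM and its 10 µM libraries at 471, 336 and 292 CPM. The groups overlap because P11 is high throughout, but within P11, P13 and P14 the 10 µM library exceeded basal by 0.30, 0.29 and 0.27 on the log2 scale, the closest agreement among the 4 called genes. With the block, Cers2 was 1.22-fold higher at 10 µM than in basal (log2 0.29 ± 0.04 SE, edgeR adjusted p = 0.0158).

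Elovl1 (ENSRNOG00000028448), an elongase of saturated very long chain acyl-CoAs, had 224, 179 and 183 CPM in the basal P11, P13 and P14 libraries. At 1 µM it had 241, 179 and 183 CPM, and at 10 µM 314, 239 and 227 CPM. Every 10 µM library was above every basal library, and against 1 µM the groups overlapped only through the P11 library of the lower dose. Elovl1 was 1.32-fold higher at 10 µM than in basal (log2 0.40 ± 0.05 SE, edgeR adjusted p = 0.0114 with the block).

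Elovl7 (ENSRNOG00000010450), another elongase of long acyl chains, was measured at 13.8, 18.6 and 20.1 CPM in the basal libraries, 14.6, 17.3 and 20.3 CPM at 1 µM and 18.2, 18.0 and 20.7 CPM at 10 µM, each in the order P11, P13, P14. Only its P11 pair stood out, with a log2 difference of 0.40 at 10 µM against basal, beside -0.05 in P13 and 0.04 in P14. Its blocked log2 fold change was 0.13 ± 0.09 (SE, edgeR adjusted p = 0.447).

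Fa2h (ENSRNOG00000018950), the fatty acid 2-hydroxylase behind the hydroxylated galactolipids of myelin, varied more between P numbers than between groups. It measured 147, 87.6 and 80.6 CPM in the basal P11, P13 and P14 libraries, 149, 85.4 and 77.6 CPM at 1 µM and 170, 97.7 and 83.5 CPM at 10 µM. The groups overlapped, while the 10 µM library was above its basal partner in all 3 P numbers, by log2 differences of 0.21, 0.16 and 0.05. The blocked log2 fold change of 0.14 ± 0.04 (SE) did not pass the test (edgeR adjusted p = 0.117).

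**Figure D2:**
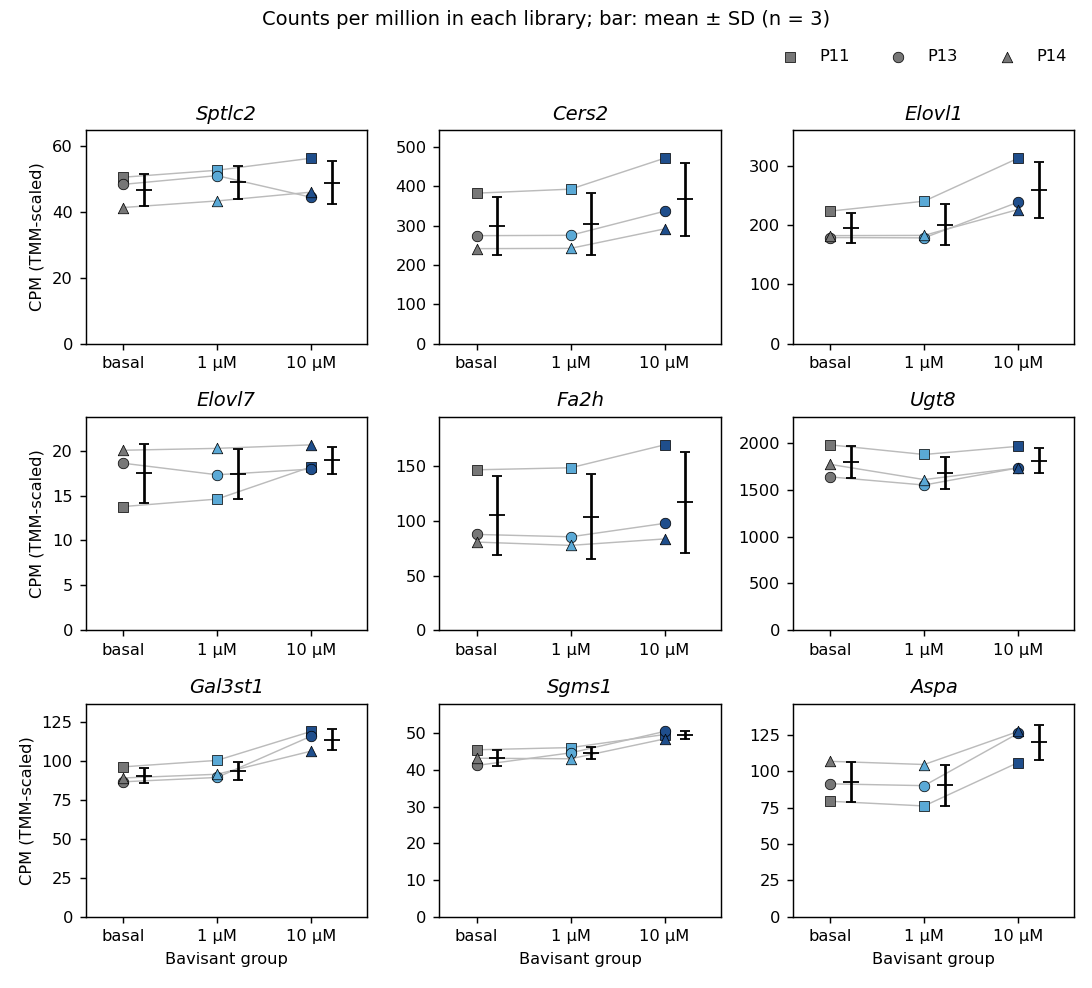
CPM of each of the 9 genes by bavisant group, with 1 symbol per library, lines joining libraries of the same P number and bars for the mean ± SD (n = 3). Gal3st1, Elovl1 and Sgms1 have all 3 libraries at 10 µM above all 3 in basal, while Ugt8 is level.

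Of the enzymes that place galactose and sulfate, Gal3st1 rose at 10 µM and Ugt8 did not pass the test. Ugt8 (ENSRNOG00000009345), the ceramide galactosyltransferase, measured 1984, 1641 and 1775 CPM in the basal P11, P13 and P14 libraries. It measured 1881, 1554 and 1612 CPM at 1 µM and 1968, 1737 and 1737 CPM at 10 µM. At 10 µM its libraries overlapped with basal, with 1 of 3 P numbers higher and 2 lower, and the blocked log2 fold change was 0.01 ± 0.04 (SE, edgeR adjusted p = 0.884). The sign of this value depends on the scaling, since it was -0.03 with library totals and -0.05 on log2(TPM + 1). At 1 µM Ugt8 was below basal in all 3 P numbers, by log2 differences of -0.08, -0.08 and -0.14, and the blocked log2 fold change of -0.10 ± 0.04 (SE) had an unadjusted p of 0.0499 and an adjusted p of 0.9998 in edgeR.

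Gal3st1 (ENSRNOG00000042041), the sulfotransferase that turns galactosylceramide into sulfatide, measured 96.1, 86.5 and 89.0 CPM in the basal P11, P13 and P14 libraries. At 1 µM it measured 100.2, 89.3 and 91.3 CPM, and at 10 µM 118.7, 115.7 and 106.1 CPM. All 10 µM libraries lay above all libraries of both other groups. With the block, Gal3st1 was 1.25-fold higher at 10 µM than in basal (log2 0.33 ± 0.05 SE, edgeR adjusted p = 0.0164). Without the block it was the only one of the 9 that DESeq2 called (adjusted p = 0.0468), while edgeR gave an adjusted p of 0.733.

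The ratio of Gal3st1 to Ugt8 within a library does not depend on how libraries are scaled. In TPM it was 0.106, 0.118 and 0.114 in the basal P11, P13 and P14 libraries, 0.112, 0.127 and 0.126 at 1 µM and 0.127, 0.146 and 0.136 at 10 µM. It was higher at 10 µM than in basal in every P number, with no overlap between these groups, and the means were 0.136 ± 0.00922 and 0.113 ± 0.00601 (SD, n = 3). It rests on the same values as the Gal3st1 call and is no separate support. The ratios of Cers2 to Ugt8 (0.227 to 0.308 in basal, 0.283 to 0.379 at 10 µM) and Fa2h to Ugt8 (0.0647 to 0.102 and 0.0681 to 0.117) overlapped. Those of Elovl1 to Elovl7 and Ugt8 to Sgms1 overlapped too.

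Sgms1 (ENSRNOG00000012536), a sphingomyelin synthase that uses the same ceramide, had a small difference with little spread. It measured 45.4, 41.2 and 43.2 CPM in the basal P11, P13 and P14 libraries, 46.0, 44.6 and 43 CPM at 1 µM and 49.6, 50.4 and 48.4 CPM at 10 µM. Every 10 µM library was above every library of the other groups. The blocked log2 fold change against basal, 0.19 ± 0.05 (SE), did not pass the test (edgeR adjusted p = 0.0706).

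Aspa (ENSRNOG00000019659), the aspartoacylase of oligodendrocytes, rose at 10 µM. Its basal P11, P13 and P14 libraries were at 79.4, 91.4 and 106.9 CPM, the 1 µM libraries at 76.2, 90.2 and 104.7 CPM and the 10 µM libraries at 106.0, 126.1 and 127.4 CPM. The lowest 10 µM library fell just under the highest basal one, and no 10 µM library was under any 1 µM library. Aspa was 1.30-fold higher at 10 µM than in basal (log2 0.38 ± 0.05 SE, edgeR adjusted p = 0.0164 with the block).

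Read against all genes, the 4 of 9 called higher at 10 µM stand beside 1.32% of 15321 genes called higher in the same blocked comparison, and 0 of the 9 were called lower beside 2.64% (3.96% in either direction). The share of higher among all called genes moved with the scaling, from 33.3% of 607 with TMM to 15.7% of 834 with library totals and 17.1% of 502 on log2(TPM + 1), all with the block, and 4 of the 9 were called under each. Groups did not overlap, with 10 µM higher, for 3 of the 9 genes (Gal3st1, Elovl1 and Sgms1) beside 4.72% of all genes, and with 10 µM lower for 0 of the 9 beside 4.61%. The 10 µM library was higher in all 3 P numbers for 6 of the 9, beside 20.5% of all genes, and lower in all 3 for 0 of the 9, beside 24.3%. The median log2 fold change of the 9 genes was 0.19, and that of all tested genes was -0.01. Without the block, edgeR called 0 of 15321 genes here, with 808 genes and 4 of the 9 (Gal3st1, Sgms1, Aspa and Elovl1) at an unadjusted p under 0.05. DESeq2 without the block called 64 genes.

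**Figure D3:**
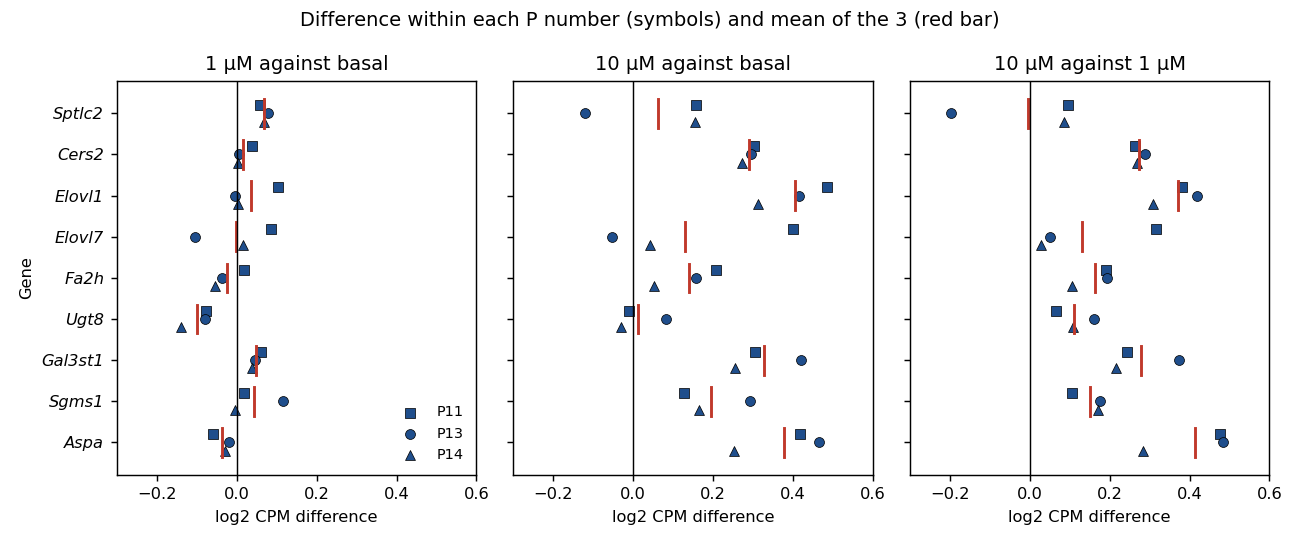
Difference in log2 CPM between groups within each P number (symbols) and the mean of the 3 (red bar) for each gene, in 3 panels by comparison. At 10 µM against basal Cers2 has nearly equal differences of 0.27 to 0.30, while those of Elovl7 run from -0.05 to 0.40 and those of Sptlc2 from -0.12 to 0.16.

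The 2 doses also differed. Against 1 µM, with the block, the 10 µM libraries were higher in Aspa (log2 0.41 ± 0.05 SE, edgeR adjusted p = 0.0141), Elovl1 (0.37 ± 0.05, adjusted p = 0.0141), Cers2 (0.27 ± 0.04, adjusted p = 0.0160) and Gal3st1 (0.28 ± 0.05, adjusted p = 0.0228). These 4 of 9 stand beside 1.31% of all genes called higher, and 0 of the 9 were called lower beside 3% (4.3% in either direction). Of all called genes 30.3% of 659 were higher with TMM, 12.6% of 926 with library totals and 15.5% of 453 on log2(TPM + 1), all with the block, and 4 of the 9 were called under each. Fa2h at 0.16 ± 0.04 (adjusted p = 0.0790), Sgms1 at 0.15 ± 0.05 (0.130), Elovl7 at 0.13 ± 0.09 (0.435) and Ugt8 at 0.11 ± 0.04 (0.185) did not pass. Sptlc2 was at -0.0030 ± 0.07 (adjusted p = 0.985). This comparison shares the 10 µM libraries with the one against basal, so its calls are no independent support of that one. Groups did not overlap for 3 of the 9, Gal3st1, Aspa and Sgms1, beside 4.14% of all genes, and 10 µM was never lower without overlap, beside 4.36%. It was higher in all 3 P numbers for 8 of the 9 (20.5% of all genes) and lower in all 3 for 0 (21.9%). Without the block edgeR called 0 of 15321 genes in this comparison, with 717 genes and 3 of the 9 at an unadjusted p under 0.05, and DESeq2 called 66 genes and none of the 9.

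At 1 µM against basal, none of the 9 genes passed with or without the block in edgeR. Their blocked log2 fold changes ran from -0.10 in Ugt8 to 0.07 in Sptlc2, with a median of 0.02. Gal3st1, Cers2 and Sptlc2 were higher in all 3 P numbers, Ugt8 and Aspa lower, beside 13.7% and 14.3% of all genes. The groups of all 9 overlapped, where 1.48% of all genes lay higher and 1.44% lower without overlap. No gene of the 15321 was called in edgeR (0%), with 582 at an unadjusted p under 0.05 with the block and 81 without, and DESeq2 without the block called 5 genes and none of the 9.

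The 4 calls at 10 µM rest on few libraries. With the block, leaving out the basal P11 or the basal P13 library ended all 4 calls against basal, leaving out basal P14 ended those of Gal3st1, Cers2 and Aspa, and leaving out the 10 µM P14 library ended those of Gal3st1 and Cers2. Calls over all genes fell in these fits too, from 607 to 0 without basal P11 and 1 without basal P13. They fell to 57 without basal P14 and 64 without 10 µM P14. Without all 3 P11 libraries the log2 fold changes were 0.38 for Elovl1, 0.30 for Cers2, 0.35 for Gal3st1 and 0.38 for Aspa, with edgeR adjusted p of 0.0673 to 0.0811. Against 1 µM, leaving out any 1 µM library or the 10 µM P14 library ended all 4 calls. Over all genes the count went from 659 to 0 without the P11 or P14 library of 1 µM. It was 0 without 10 µM P14 and 31 without 1 µM P13.

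Across P numbers the 9 genes were not uniform, as their means over the 3 groups show. Fa2h averaged 155 CPM in P11, 90.2 in P13 and 80.5 in P14, and Cers2 415, 295 and 258 CPM. Aspa and Elovl7 had the reverse order, with 87.2, 102.6 and 113.0 CPM for Aspa and 15.5, 18.0 and 20.3 CPM for Elovl7. On average the P11 libraries were thus the highest in Fa2h and Cers2 and the lowest in Aspa and Elovl7.

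Compared as profiles over the 9 libraries (log2 CPM less its own mean, root mean square difference), the closest pair of the 9 was Gal3st1 and Sgms1 at 0.075, and the farthest was Fa2h and Aspa at 0.58. The genes outside the set whose profiles were nearest to Ugt8 were Ppp2r5a (0.036), Ahcyl1 (0.041) and Smarcal1 (0.042), where the median over 9931 genes was 0.176. For Gal3st1 they were Larp6 (0.034), RGD1560015 (0.038) and Dbndd2 (0.038), with a median of 0.208. Nearest to Fa2h were Acot7 (0.075), Tmbim1 (0.083) and Osgin2 (0.096), with a median of 0.434. These are descriptions over libraries that share P numbers and groups.

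Around these 9, the list of the pathway held 65 further genes in 6 roles, all in the file, of which 60 were tested. At 10 µM against basal, with the block, 2 of the 60 rose and 4 fell, beside 1.32% and 2.64% of all genes, and the median log2 fold change of the 60 was -0.01. Without the block, edgeR called 0 of the 60, and 9 had an unadjusted p under 0.05. At 1 µM none passed in edgeR with the block, 1 had an unadjusted p under 0.05, and the median was -0.02.

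Of the serine palmitoyltransferase role, 0 of 7 tested genes passed at 10 µM. Values nearest to the threshold were those of Ormdl3, an inhibitor of the enzyme, at log2 -0.21 (edgeR adjusted p = 0.0997), Sptssa, a small activating subunit, at 0.14 (0.129), and Ormdl2 at 0.15 (0.208). None of the 5 tested ceramide synthases and desaturases passed either. Degs1, the desaturase that completes ceramide, was at 0.13 (adjusted p = 0.116), and the synthases Cers4 and Cers6 were at -0.23 (0.128) and -0.26 (0.179), and no tested ceramide synthase other than Cers2 passed.

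In fatty acid elongation, 1 of 10 tested genes rose and 1 fell. Tecr, the reductase of the last step of each elongation cycle, measured 382, 335 and 353 CPM in the basal P11, P13 and P14 libraries and 439, 458 and 401 CPM at 10 µM (log2 0.28 ± 0.06 SE, edgeR adjusted p = 0.0388 with the block). Elovl2, an elongase of polyunsaturated chains, measured 19.3, 36.2 and 53.1 CPM in basal and 10.97, 30.3 and 40.8 CPM at 10 µM (log2 -0.46 ± 0.10 SE, edgeR adjusted p = 0.0417). The groups of Tecr do not overlap, and those of Elovl2 do. Hacd4, a dehydratase, was at -0.72 without passing (0.121).

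Among the genes of the other head groups and of ceramide transport, 0 of 11 rose and 2 fell. B4galt5, which builds lactosylceramide, measured 60.6, 62.4 and 54.2 CPM in the basal P11, P13 and P14 libraries and 45.6, 43.1 and 36.2 CPM at 10 µM (log2 -0.51 ± 0.05 SE, edgeR adjusted p = 0.0101 with the block). Cert1, the carrier that brings ceramide to sphingomyelin synthesis, measured 92.7, 91.7 and 96.2 CPM in basal and 84.2, 79.5 and 83.8 CPM at 10 µM (log2 -0.18 ± 0.04 SE, edgeR adjusted p = 0.0472). Neither gene's groups overlapped. B4galt6, which has the same activity as B4galt5, was at -0.30 (adjusted p = 0.0624).

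Of the list named breakdown, which also holds kinases, 1 of 21 tested genes fell and 0 rose. The gene that fell was Cerk, the ceramide kinase, and not an enzyme that splits these lipids. It had 97.7, 137 and 126 CPM in the basal P11, P13 and P14 libraries and 77.7, 104 and 107 CPM at 10 µM (log2 -0.32 ± 0.05 SE, edgeR adjusted p = 0.0193 with the block). Sgpp1 and Hexa did not pass, at 0.18 (0.0667) and -0.18 (0.0855). In the supply of N-acetylaspartate and acetyl-CoA, 1 of 6 rose. Acss2, which turns acetate into acetyl-CoA, measured 138, 95.6 and 112 CPM in basal and 167, 137 and 139 CPM at 10 µM (log2 0.36 ± 0.07 SE, edgeR adjusted p = 0.0348). Acly and Acss1 were at 0.24 (0.0612) and -0.27 (0.0622). Against 1 µM, Acss2 and Sgpp1 rose and B4galt5 and Cerk fell at 10 µM with the block.

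**Figure D4:**
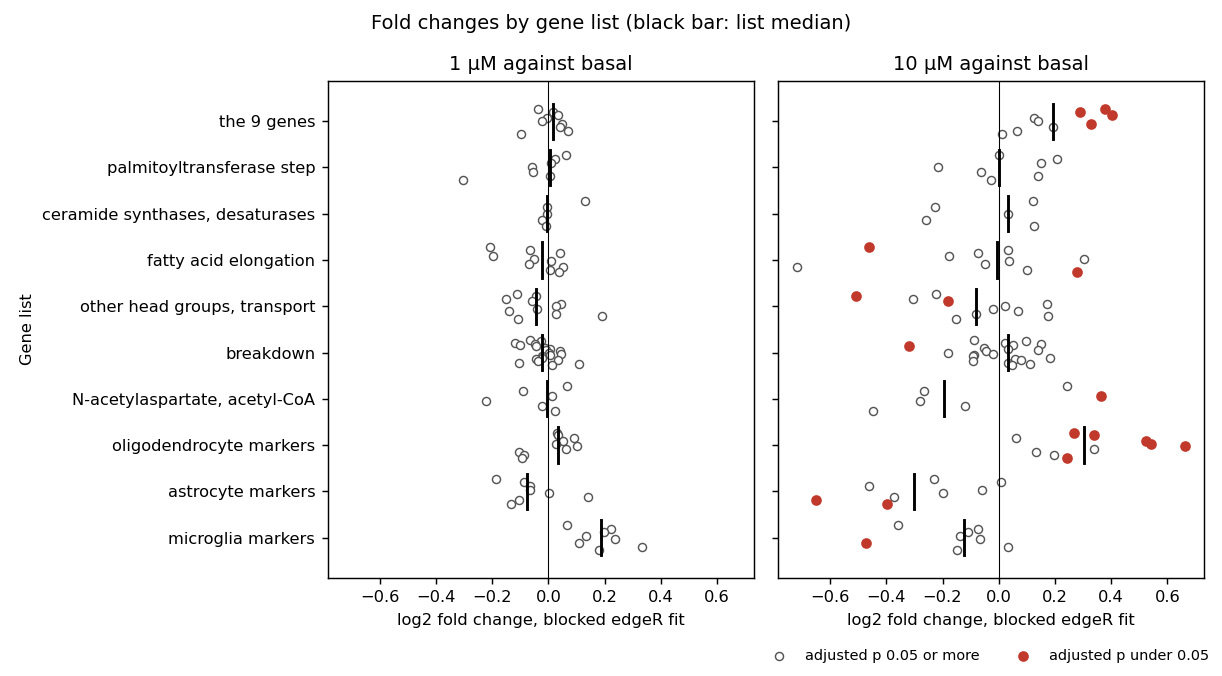
Log2 fold change of each tested gene (points; filled where the adjusted p of the blocked edgeR fit is under 0.05) and the list median (black bar), for the 9 genes, the 6 pathway roles and 3 marker lists at each dose against basal. At 10 µM 4 of the 9 genes and 6 oligodendrocyte markers are filled on the right of 0, and no point is filled at 1 µM.

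Cell type markers also moved with the higher dose. The 10 oligodendrocyte markers summed to 44365 to 54366 CPM in basal, 42908 to 54305 CPM at 1 µM and 62233 to 71128 CPM at 10 µM libraries, and 6 of the 10, among them Mbp, Cnp, Mag and Mobp, rose at 10 µM against basal with the block. The 8 astrocyte markers summed to 2910 to 3458 CPM in basal and 2227 to 3068 CPM at 10 µM, where Slc1a2 and Slc1a3 fell. The 8 microglia markers summed to 405 to 578 CPM in basal and 410 to 479 CPM at 10 µM, with 1 (Itgam) lower. The 8 neuron markers summed to 340 to 600 CPM in basal and 277 to 459 CPM at 10 µM, and 3 of 7 tested fell (Gad1, Gad2 and Stmn2). Precursor and vascular markers had 0 called in this comparison. These counts stand beside 1.32% of all 15321 genes called higher and 2.64% called lower with the block. Without the block edgeR called 0 markers in each of these lists. The blocked calls over all genes fell from 607 to 0 without basal P11 and to 1 without basal P13. The part of any of these cell types in the results on the 9 genes was not tested.

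Schwann cells also make galactolipids. Their marker Ncmap had 0 reads in all 9 libraries, and the 7 Schwann markers in the file summed to 49.3 to 97.7 CPM in basal and 49.7 to 79.4 CPM at 10 µM. Of 6 tested, 1 (Pmp2, log2 0.42) rose at 10 µM with the block, beside 1.32% of all genes, and 0 were called without it.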

How the data were processed

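RNA was measured in 9 libraries by sequencing with the Illumina Stranded mRNA Prep kit. The submitters' processing notes name build rn6 and the tools FastQC, Trimmomatic, DRAGEN and Picard. Settings, annotation release and strandedness of counting are not given in the sources used. The authors deposited expected counts per gene (92.7% whole values, not scaled between libraries) and TPM values, which are scaled by gene length to a common sum. Symbols are those of the tables, where 399 of 32623 IDs lack one.

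The counts were rounded and tested in R 4.3.3 with edgeR 4.0.16 (quasi-likelihood F test, all 9 libraries, TMM factors, filterByExpr with count minimum 10 and total minimum 15). P-values were adjusted by Benjamini-Hochberg over 15321 genes, and genes with an adjusted p under 0.05 were called. The SE is the log2 fold change over the square root of F. CPM are TMM-scaled, and differences per P number use a prior count of 2. Depth was 23.9 M to 43.1 M reads. A count of 0 is compatible with up to 3 reads, counting error alone considered. Libraries of a group all differed by more than sampling noise (chi-square over its degrees of freedom, 24.3 to 119).

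The P numbers come from the sample titles. Same-number libraries deviated together in all 9 pairs (lowest correlation 0.319, over the 0.1 asked for), so the fit with the P number as a block is given beside the fit without it. Other settings were DESeq2 1.42.0, other scalings and filters, limma 3.58.1 on log2(TPM + 1) or log2(TPM + 0.1), and leaving out each library. The block combined with DESeq2 size factors, with other filters or with the P11 libraries left out was chosen after seeing the data. The scripts were tested on simulated data.

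The genes, lists, motifs and tests were chosen with earlier results of these data known. The 9 genes are named whatever their values. Of the 65 other pathway genes, up to 3 a role are named, those with the smallest p in the blocked comparison of 10 µM and basal. Promoter letters are from RefSeq (GRCr8), a build other than that of the files, and no coordinate was joined to the counts. The markers Lhfpl3, Foxd3 and Pecam1 were not analysed here, and some marker genes are not reported here by name.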

Additional observations from a re-analysis of the deposited data

How the results depend on the processing

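The P number block decided the calls. With the replicate block edgeR called 607 genes and 4 of the 9 at 10 µM against basal, and 659 genes and 4 of the 9 at 10 µM against 1 µM, where the fit without it called none. DESeq2 without the block called 64 genes and 1 of the 9, 5 genes at 1 µM and 66 against 1 µM. With the block DESeq2 called 964 genes at 10 µM and 8 at 1 µM against basal.

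Without the P11 libraries the blocked fit called 10 genes and 0 of the 9 against basal, and 110 and 0 against 1 µM. Leaving out 1 library at a time, it called 0 to 581 genes and 0 to 4 of the 9 against basal, 0 to 651 genes and 0 to 4 of the 9 against 1 µM, and 0 to 2 genes at 1 µM. The 4 called genes kept their direction in all of these and stayed called in 6 of 7 other blocked settings.

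Signs that turned were all of values that did not pass. Ugt8 at 10 µM against basal was -0.0346 with library totals (-0.0339 with the block), -0.0536 on log2(TPM + 1) with or without filter or block and -0.0537 on log2(TPM + 0.1). Elovl7 at 1 µM was 0.0064 on log2(TPM + 1) with or without filter or block, 0.0067 on log2(TPM + 0.1) and 0.0024 with the block and library totals. Sptlc2 at 10 µM against 1 µM was 2.8e-04 with no count filter and no block.

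With 1 library left out and no block, at 10 µM against basal Ugt8 ran from -0.0513 to 0.0875, Fa2h from -0.211 to 0.476, Elovl7 from -0.0296 to 0.225 and Sptlc2 from -0.0468 to 0.131. At 1 µM Gal3st1 ran from -1.5e-04 to 0.0938, Fa2h from -0.362 to 0.305, Cers2 from -0.208 to 0.235, Elovl1 from -0.108 to 0.151, Elovl7 from -0.152 to 0.107, Aspa from -0.155 to 0.0810 and Sptlc2 from -0.0133 to 0.149. Against 1 µM Fa2h ran from -0.197 to 0.528 and Sptlc2 from -0.115 to 0.0626. With the block Ugt8 ran from -0.0165 to 0.0352 at 10 µM against basal, Sptlc2 from -0.0520 to 0.0898 against 1 µM, and at 1 µM Fa2h from -0.0528 to 0.0052, Elovl1 from -0.0030 to 0.0653 and Elovl7 from -0.0884 to 0.0647. The cause of each was not tested.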
